A study of Mus musculus with 2 samples.

Results

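This account covers 34 genes of the cell cycle, chosen by symbol, of 26078 genes in the count tables, in liver cells of 2 C57BL/6J mice aged 7 to 10 weeks and kept free of specific pathogens. The Ter119 mouse received the antibody Ter119, which binds red blood cells, as 35 ug under the skin and then as 10 daily injections of 10 ug. The saline mouse received a like volume of saline. Livers were collected at 24 from the final injection, and the labels give no unit for that time. Cells other than hepatocytes were enriched with magnetic beads binding F4/80 or CD11b. Droplet libraries were then read as unique molecular identifiers (UMIs), 1 per captured transcript. The members were 14 genes of the G1/S transition and DNA synthesis, 15 genes of G2 and mitosis (G2/M), 3 D cyclins, and the pair Stmn1 and Hmgb2. By the labels each group is 1 mouse, so there is no replicate check and no test. The effects of treatment, of the animal and of its library cannot be told apart. Every 95% interval below covers counting error and nothing else.

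A dividing cell copies its DNA in S phase and separates the copies in mitosis. D cyclins activate Cdk4 and Cdk6, which release E2F factors to switch on the genes of DNA synthesis. Mitotic genes are induced later, largely through promoter elements called CHR and CCAAT boxes, bound by MuvB complexes and by NF-Y. Kupffer cells are resident liver macrophages that can renew themselves in place. Neutrophils and red cells stop dividing as they mature, so their progenitors are the dividing stages.

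The sequences upstream of the members differed between the phases in these elements, and 4 windows are shown because each holds CHR or E2F letters without the other. RefSeq windows on GRCm38.p6, from 250 bases before to 50 after the start of transcription, matched 13 of the 15 G2/M genes and 12 of the 14 G1/S genes. The CHR letters TTTGAA, read on both strands, occurred in 10 of 13 G2/M windows (76.9%) and in 1 of 12 G1/S windows (8.33%), that of Mcm2, beside 18.1% of 27025 windows of all genes. An E2F word, TTTGGCGC or TTTCCCGC or TTTCGCGC or TTTGCCGC on either strand, occurred in 1 of 13 G2/M windows (7.69%), that of Cdk1, and in 5 of 12 G1/S windows (41.7%), beside 2.32% of all windows. CCAAT occurred in 92.3% of G2/M windows, 75.0% of G1/S windows and 37.9% of all windows. A match describes letters and is not a bound site. In the windows of Ube2c, a ubiquitin-conjugating enzyme of the anaphase-promoting complex (chr2:164769679-164769978, plus strand), Top2a, the topoisomerase that untangles sister DNA (chr11:99024140-99024439, minus strand), Pclaf, a Pcna-binding factor (chr9:65890073-65890372, plus strand), and Mcm6, a subunit of the replicative helicase (chr1:128359656-128359955, minus strand), capitals mark CHR, CCAAT and E2F letters on either strand, and adjoining capitals can be overlapping matches.
Ube2c: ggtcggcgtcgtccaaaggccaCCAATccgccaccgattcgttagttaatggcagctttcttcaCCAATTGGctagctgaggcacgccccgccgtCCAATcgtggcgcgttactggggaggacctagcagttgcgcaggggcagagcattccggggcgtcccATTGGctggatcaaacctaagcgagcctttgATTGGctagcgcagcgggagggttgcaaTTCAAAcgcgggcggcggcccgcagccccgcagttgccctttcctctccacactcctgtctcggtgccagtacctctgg
Top2a: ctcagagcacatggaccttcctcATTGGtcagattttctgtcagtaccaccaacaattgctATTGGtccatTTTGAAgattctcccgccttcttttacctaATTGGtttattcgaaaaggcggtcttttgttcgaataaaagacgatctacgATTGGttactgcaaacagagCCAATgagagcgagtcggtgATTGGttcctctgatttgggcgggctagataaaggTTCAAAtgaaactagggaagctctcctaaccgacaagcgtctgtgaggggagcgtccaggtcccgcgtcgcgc
Pclaf: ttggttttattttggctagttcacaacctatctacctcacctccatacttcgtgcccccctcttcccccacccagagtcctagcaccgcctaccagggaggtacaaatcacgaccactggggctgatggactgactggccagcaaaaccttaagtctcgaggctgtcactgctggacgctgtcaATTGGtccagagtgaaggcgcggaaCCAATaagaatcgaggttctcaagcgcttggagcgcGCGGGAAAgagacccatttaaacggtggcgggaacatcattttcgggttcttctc
Mcm6: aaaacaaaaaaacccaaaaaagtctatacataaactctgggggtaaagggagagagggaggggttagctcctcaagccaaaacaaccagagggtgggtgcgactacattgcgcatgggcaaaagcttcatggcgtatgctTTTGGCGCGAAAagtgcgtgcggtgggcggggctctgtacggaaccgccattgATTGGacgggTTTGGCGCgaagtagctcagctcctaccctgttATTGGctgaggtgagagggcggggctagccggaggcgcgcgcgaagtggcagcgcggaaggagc

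Ube2c and Top2a held 1 and 2 CHR matches and no E2F word, whereas Pclaf and Mcm6 held 1 and 3 E2F matches and no CHR. The CHR match nearest the start lay 29 bases before it in Ube2c and 23 before it in Top2a. Among related genes outside the members, CHR letters occurred in 29 of 40 windows of other mitosis genes (72.5%) and in 3 of 24 windows of other replication genes (12.5%). E2F words occurred in 3 of 40 and in 8 of 24 (33.3%) windows of these lists. Hmgb2, a chromatin protein of the high mobility group, held CHR and CCAAT letters.

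The Ter119 library had 25760 barcodes and 61892074 UMIs and the saline library 18354 barcodes and 97181787 UMIs. Of these, 13846 Ter119 and 11572 saline barcodes were kept, with medians of 2803 UMIs in Ter119 and 6239 in saline, and 133 barcode sequences occurred in both libraries. Barcodes were assigned to cell types by gates on marker genes that held no cell cycle gene. All 34 members were detected in both samples, and together they made up 0.129% of Ter119 and 0.137% of saline UMIs. Levels are CPM, the counts of a gene scaled to a fixed total of the UMIs summed over a gate, and since each transcript is counted at its 3' end they carry no correction for length. The Kupffer gate held 62.9% of Ter119 and 84.1% of saline barcodes. Its 14 markers summed to 23140 CPM in Ter119 and 39460 in saline. In this gate Clec4f stood at 926.1 CPM in Ter119 and 5293 in saline and Timd4 at 23.7 in Ter119 and 575.1 in saline, whereas Marco stood at 3929 CPM in Ter119 and 846 in saline. All 14 were detected in both samples. Hemoglobin genes took 8.74% of Kupffer-gate UMIs in Ter119 and 0.0152% in saline, and the part of this in the results was not tested except where values without them are given.

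**Figure D1:**
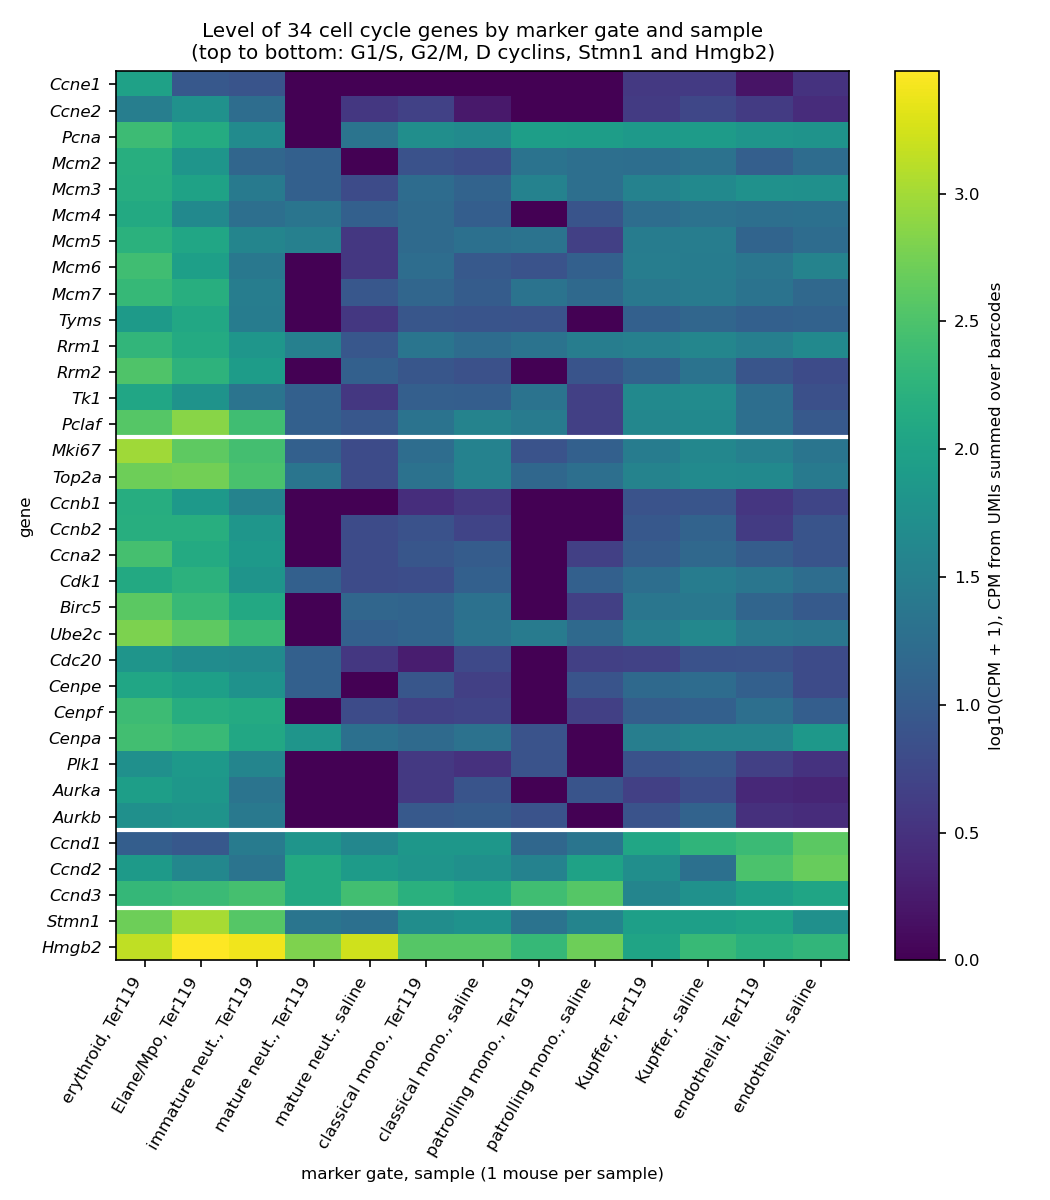
Level of each of the 34 members (rows) in 8 marker gates (columns, with Ter119 left of saline), as log10 of CPM plus 1, in 1 mouse per sample. The erythroid and Elane/Mpo columns of Ter119 are brightest in the G1/S and G2/M blocks. The immature neutrophil column of Ter119 is bright in the G2/M block, and Ccnd1 is dim in these columns.

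Erythroid progenitors showed the highest levels of both phases. This gate, led by markers such as Klf1 and Gata1, held 35 Ter119 barcodes and 0 of 11572 saline barcodes. That allows a share of up to 0.0259% in saline, taken as 3 over the barcodes kept. All 19 of its markers were detected, and hemoglobin genes took 27.0% of its UMIs. The 14 G1/S members summed to 2507 CPM (95% interval 2294 to 2734) and the 15 G2/M members to 4090 CPM. Set against the Kupffer gate of the same library, the G1/S sum was 6.92 times as high (6.32 to 7.56) and the G2/M sum 17.8 times (16.6 to 19.1), with all 14 and all 15 members higher.

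Within the erythroid progenitors, Mki67, a proliferation antigen coating mitotic chromosomes, led the G2/M genes at 968.4 CPM. Ube2c followed at 609.6 CPM and Top2a at 516.2 CPM. Plk1 and Aurkb, kinases of mitotic entry and chromosome segregation, were the lowest at 54.1 CPM each. Among G1/S members Pclaf stood at 358.9 CPM, Rrm2, the small subunit of ribonucleotide reductase, at 329.4, and Mcm6 at 260.5. Ccne1, cyclin E1, reached 98.3 CPM there, from 20 UMIs. It stood at 8.03 CPM (2 UMIs) in the Elane/Mpo gate, 6.99 (8 UMIs) in immature neutrophils and 2.75 in Kupffer barcodes of Ter119. Ccne2, the other cyclin E, was higher in the Elane/Mpo gate, at 56.2 CPM (14 UMIs), than in erythroid progenitors, at 29.5 CPM (6 UMIs). The ratio of G2/M to G1/S UMIs was 1.63 (1.46 to 1.82), and 1.45 without the member with the most UMIs in each list.

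The gate on Elane, Mpo and other early granule genes held 52 Ter119 and 0 of 11572 saline barcodes. In it the markers of immature neutrophils summed to 63332 CPM and those of mature neutrophils to 151135 CPM, against 10606 CPM for its own markers. It is therefore named here by its gate. G1/S members summed to 1987 CPM and G2/M members to 2830 CPM, with a G2/M to G1/S ratio of 1.42 (1.27 to 1.60). Pclaf, at 734.6 CPM, made up 37.0% of the G1/S sum, and Stmn1, a tubulin-binding protein of dividing cells, reached 1060 CPM.

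Immature neutrophils, gated on secondary granule genes such as Ltf, Camp and Ngp, numbered 481 in Ter119 and 2 in saline. The saline barcodes were too few to compare. In Ter119 the G2/M members summed to 1606 CPM and the G1/S members to 670.5 CPM. This gave the highest G2/M to G1/S ratio of the gates in Ter119, 2.39 (2.20 to 2.61). Pclaf, at 256.7 CPM, made up 38.3% of the G1/S sum. The median G1/S member stood at 26.6 CPM, beside 25.8 CPM in Kupffer barcodes of Ter119. Set against the Elane/Mpo gate, Mcm2 stood at 13.1 against 64.2 CPM and Pcna, the sliding clamp of DNA polymerase, at 46.3 against 136.5 CPM. Cdc20, an activator of the anaphase-promoting complex, stood at 45.4 against 48.2 CPM, and Cenpf, a kinetochore protein, at 132.7 against 144.5 CPM. Other G2/M members lay further apart, with Cdk1 at 62.0 against 172.6 CPM and Plk1 at 37.5 against 76.3 CPM. All 14 G1/S and all 15 G2/M members were higher in the Elane/Mpo gate. Over the lists, the Elane/Mpo gate was 2.96 times as high for G1/S (2.64 to 3.32) and 1.76 times for G2/M (1.61 to 1.92). Against Kupffer barcodes of the same library, all 15 G2/M members but 9 of 14 G1/S members were higher in immature neutrophils.

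Mature neutrophils, gated on S100a8, S100a9, Cxcr2 and related genes, were the lowest of these stages. They numbered 48 in Ter119 and 163 in saline. G1/S members summed to 129.0 CPM from 12 UMIs in Ter119 and 84.3 CPM from 32 UMIs in saline. G2/M members summed to 129.0 CPM from 12 UMIs in Ter119 and 76.4 CPM from 29 UMIs in saline. No phase gene reached the minimum for a comparison (20 UMIs and 10 CPM in 1 sample). Of 3 members that did, Ccnd3 and Hmgb2 were at least 2-fold lower in Ter119 and none was at least 2-fold higher, where 36.5% of all 2565 genes compared were that much lower and 4.91% higher. Ccnd3, a D cyclin common in blood cells, stood at 129.0 CPM (12 UMIs) in Ter119 and 266.0 (101 UMIs) in saline, a ratio of 0.485 (0.243 to 0.885). Hmgb2 stood at 634.1 CPM in Ter119 and 1662 in saline. With median-of-ratios factors neither Ccnd3 nor Hmgb2 was 2-fold lower (log2 -0.38 for Ccnd3 and -0.72 for Hmgb2) and Ccnd2 was at least 2-fold higher. Ccnd2 also rested on 12 Ter119 UMIs, and its CPM ratio of 1.63 had an interval, 0.761 to 3.28, that included 1. With hemoglobin left out Ccnd3 stood at -0.68, Hmgb2 stayed 2-fold lower and Ccnd2 was again at least 2-fold higher. The gate differed between the samples in its own markers. Immature neutrophil markers summed to 8706 CPM in Ter119 and 2704 in saline, Cxcr2 stood at 505.2 CPM in Ter119 and 1706 in saline, and Csf3r at 505.2 CPM in Ter119 and 2836 in saline. Hemoglobin genes took 22.1% of the Ter119 UMIs of this gate and 0.00105% of the saline UMIs. The part of either in these results was not tested beyond the values without hemoglobin.

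**Figure D2:**
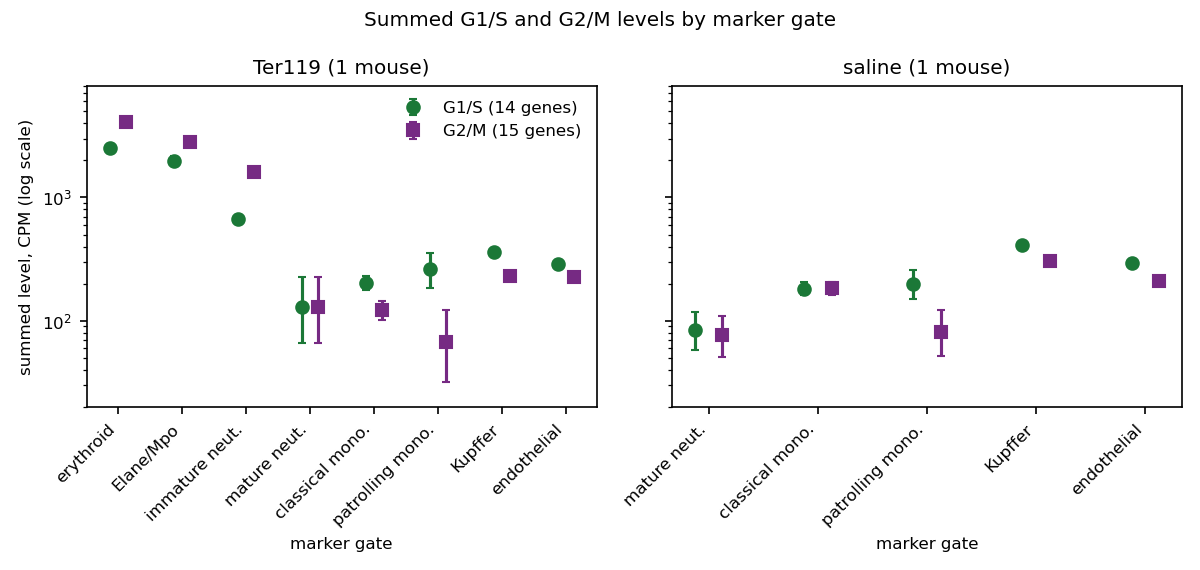
Summed level of the G1/S and G2/M members in CPM (log axis) by marker gate, with Ter119 left and saline right and bars giving 95% Poisson intervals. G2/M lies above G1/S in the erythroid, Elane/Mpo and immature neutrophil gates of Ter119 and below it in Kupffer barcodes of both samples.

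Kupffer barcodes had lower phase sums than the erythroid, Elane/Mpo and immature neutrophil gates of Ter119, with G1/S above G2/M. Their G1/S and G2/M sums lay above those of mature neutrophils and classical monocytes of the same sample. In Kupffer barcodes G1/S members summed to 362.4 CPM in Ter119 and 413.9 CPM in saline, a ratio of 0.876 (0.857 to 0.894). G2/M members summed to 229.7 CPM in Ter119 and 305.7 CPM in saline, a ratio of 0.751 (0.732 to 0.771). The median gene was itself lower in Ter119, with a log2 ratio of -0.34 over 8315 genes compared. On the log2 scale G1/S stood at -0.19 by CPM, but at 0.14 when the libraries were scaled by TMM or median-of-ratios factors, so its direction depends on the scaling, while G2/M stood at -0.41 by CPM and at -0.08 by both factors. A ratio within a sample needs no scaling. G2/M over G1/S was 0.634 (0.616 to 0.652) in Ter119 and 0.739 (0.726 to 0.752) in saline.

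Of the 34 members, 28 had enough UMIs in Kupffer barcodes to be compared, and 26 of them were lower in Ter119 by CPM, but 12 of 28 were lower with TMM or median-of-ratios factors and 21 of 28 with hemoglobin left out. By the 2-fold rule 1 was higher and 1 was lower, beside 3.28% of all genes compared that were higher and 11.6% that were lower. The member that was higher was Ccnd2, and the member that was lower was Hmgb2. The 23 phase genes compared had ratios between 0.549, that of Rrm2, and 1.04, that of Mcm6. The 6 members with too few UMIs per total to compare, Ccne1, Ccne2, Ccnb1, Cdc20, Plk1 and Aurka, stood between 2.75 and 6.67 CPM in Ter119 and between 2.95 and 7.90 CPM in saline. The median log2 ratio was -0.19 over 12 G1/S members and -0.50 over 11 G2/M members, against the -0.34 of all genes.

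The 3 D cyclins did not move together. Ccnd2 (chr6:127125162-127152193, minus strand, GRCm38) stood at 52.1 CPM in Ter119 and 18.1 CPM in saline, 2.88 times as high (2.68 to 3.09). Its log2 ratio of 1.52 ranged from 1.31 to 1.86 over 10 other settings. Ccnd1 (chr7:144929931-144939925, minus strand) stood at 114.4 CPM in Ter119 and 190.5 in saline, a ratio of 0.600 (0.579 to 0.622). Ccnd3 (chr17:47505051-47599691, plus strand) stood at 36.7 CPM in Ter119 and 55.6 in saline, a ratio of 0.660 (0.619 to 0.704). Ccnd2 was the least abundant D cyclin in saline Kupffer barcodes and lay between Ccnd1 and Ccnd3 in Ter119. Endothelial barcodes held Ccnd2 at 315.2 CPM in Ter119 and 462.8 in saline. Summed endothelial markers in the Kupffer gate stood at 458.6 CPM in Ter119 and 398.2 in saline. Ter119 Kupffer barcodes with a UMI of Gpnmb, a membrane glycoprotein of lipid-laden macrophages, held Ccnd2 at 46.7 CPM and those without at 65.1 CPM, both above the saline level.

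Hmgb2 (chr8:57511907-57515999, plus strand) stood at 108.0 CPM in Ter119 and 221.1 CPM in saline, a ratio of 0.489 (0.471 to 0.507). It was no longer 2-fold lower under TMM factors (log2 -0.71), median-of-ratios factors (-0.70), with hemoglobin left out (-0.90) or with barcodes past several gates kept (-0.98). Stmn1 stood at 89.6 CPM in Ter119 and 90.9 in saline, a ratio of 0.986 (0.944 to 1.03). Among phase genes Rrm2 stood at 11.1 CPM in Ter119 and 20.2 in saline, a ratio of 0.549. Aurkb stood at 6.64 CPM in Ter119 and 11.9 in saline, a ratio of 0.559, and Cdk1, the mitotic kinase, at 16.9 in Ter119 and 27.8 in saline, a ratio of 0.605. Mki67 stood at 28.2 CPM in Ter119 and 39.7 in saline. At the other end, Mcm6 stood at 28.47 CPM in Ter119 and 27.5 in saline, a ratio of 1.04 (0.959 to 1.12), and Mcm5 at 27.7 in Ter119 and 28.6 in saline. Pcna was the most abundant phase gene in both samples, at 73.2 CPM in Ter119 and 79.3 in saline. The cyclins E were among the lowest, with Ccne1 at 2.75 CPM in Ter119 and 2.95 in saline.

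**Figure D3:**
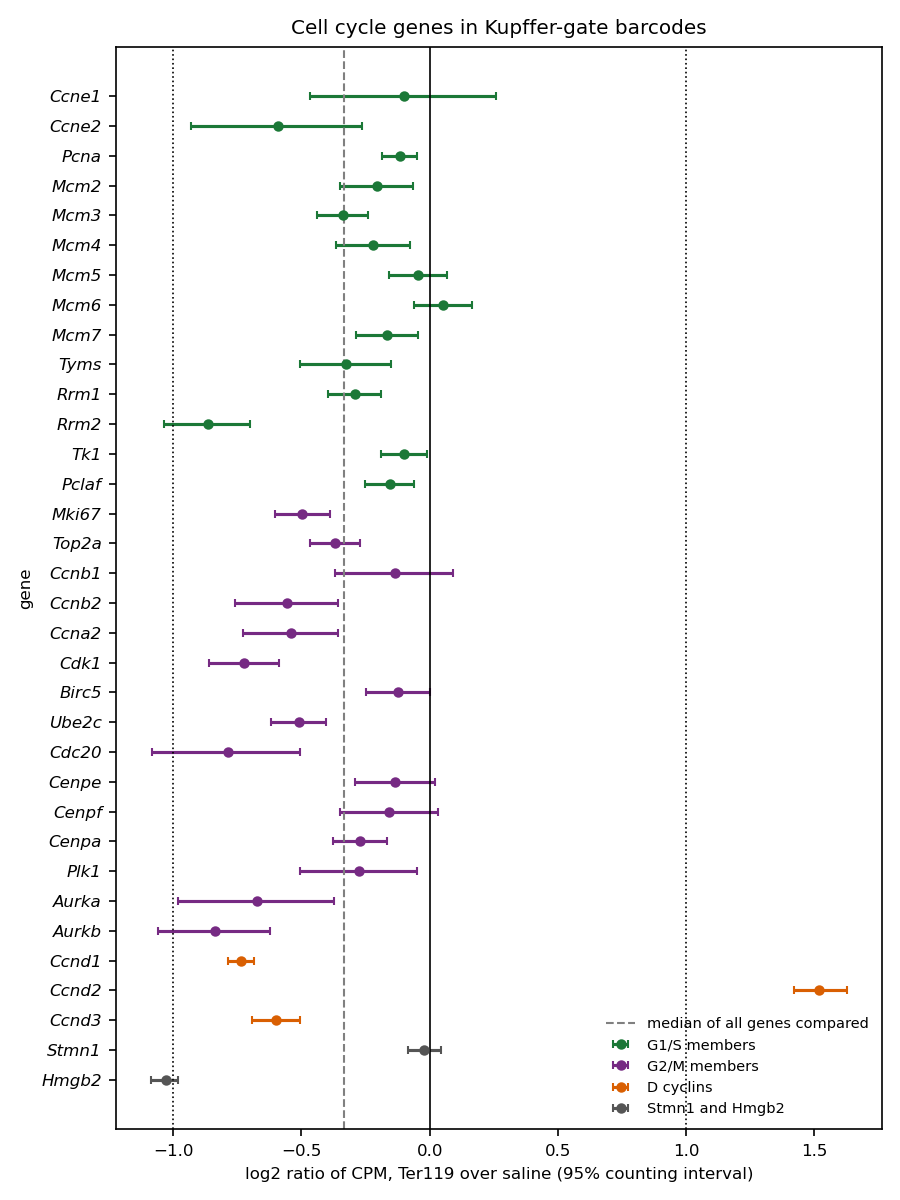
Log2 ratio of CPM, Ter119 over saline, of each member in Kupffer-gate barcodes (1 mouse per sample), with bars giving 95% counting intervals, dotted lines at 2-fold and a dashed line at the median of all genes compared (-0.34). Ccnd2 at 1.52 stands alone to the right, and Hmgb2 at -1.03 lies just past 2-fold on the left.

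Other genes of the pathway in Kupffer barcodes mostly stayed within 2-fold, with exceptions among regulators. Of 36 other replication genes 19 were compared, 0 were higher and 1 was lower, with a median log2 ratio of -0.28. The lower one was Pola1, the catalytic subunit of DNA polymerase alpha, at 12.6 CPM in Ter119 and 26.4 in saline, and it was within 2-fold with TMM factors (log2 -0.73), median-of-ratios factors (-0.73) and hemoglobin left out (-0.93). Nasp, a histone chaperone, stood at 51.0 CPM in Ter119 and 32.7 in saline, and Rpa2, which coats single-stranded DNA, at 9.37 in Ter119 and 16.4 in saline. Of 49 other mitosis genes 23 were compared and 0 passed in either direction, with a median of -0.43. The furthest were Anln, an actin-binding protein of the cleavage furrow, at 5.72 CPM in Ter119 and 10.6 in saline, Hjurp, the chaperone of Cenpa, at 36.1 in Ter119 and 66.2 in saline, and Ncapd2, a condensin subunit, at 7.36 in Ter119 and 13.4 in saline.

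Among 16 inhibitors of the cycle, 11 were compared, 1 was higher and 2 were lower. Cdkn1a, the p53-induced inhibitor p21, stood at 55.2 CPM in Ter119 and 17.2 in saline, 3.21 times as high (2.99 to 3.45). Btg2, an antiproliferative immediate early gene, stood at 31.2 CPM in Ter119 and 80.5 in saline, and Cdkn2c, an inhibitor of Cdk4 and Cdk6, at 7.42 in Ter119 and 14.96 in saline. Btg2 stayed 2-fold lower under the other scalings, whereas Cdkn2c was within 2-fold with TMM factors (log2 -0.68), median-of-ratios factors (-0.68) and hemoglobin left out (-0.88). Among 22 E2F factors and regulators 13 were compared, 1 was higher and 1 was lower. Skp2, a ubiquitin ligase subunit that targets p27, stood at 48.1 CPM in Ter119 and 17.9 in saline, 2.70 times as high (2.50 to 2.90). Myc, a growth factor-induced transcription factor, stood at 11.7 CPM in Ter119 and 27.9 in saline, and was within 2-fold with TMM (log2 -0.93) and median-of-ratios factors (-0.92). Cdk2, the partner of the cyclins E, stood at 15.2 CPM in Ter119 and 25.7 in saline.

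Levels also differed within the Ter119 Kupffer barcodes. The 2505 barcodes with at least 1000 hemoglobin UMIs per 10000 held G1/S members at 279.0 CPM, against 404.2 CPM in the other 6206, and G2/M members at 184.8 against 252.2 CPM. The hemoglobin UMIs are themselves part of these totals. The 5395 barcodes with a Gpnmb UMI held G1/S members at 356.9 CPM, against 375.7 CPM in the 3316 without, and G2/M members at 234.3 against 218.7 CPM. Median depths were 4276 UMIs with and 2520 without a Gpnmb UMI.

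After thinning each barcode to 1500 UMIs, at least 3 of the 29 phase genes were found in 6.84% of Ter119 Kupffer barcodes (515 of 7529, exact interval 6.28 to 7.43%) and 7.86% of saline Kupffer barcodes (703 of 8948, 7.31 to 8.43%). Before thinning the shares were 18.5% in Ter119 and 34.04% in saline, at median depths of 3674 UMIs in Ter119 and 6762 in saline, and 1182 Ter119 and 784 saline barcodes were too shallow to thin. The order of the samples was not stable. With at least 2 genes the shares were 15.2% in both, and at 2500 UMIs they were 12.1% in Ter119 and 11.6% in saline. At 2500 UMIs 2656 of 8711 Ter119 and 1789 of 9732 saline Kupffer barcodes were too shallow, so the parts compared differed. Mature neutrophils, which no longer divide, gave 0 of 22 barcodes in Ter119 and 0 of 157 in saline. The exact intervals allow up to 15.4% in Ter119 and 2.32% in saline. A further 26 of 48 Ter119 and 6 of 163 saline barcodes of that gate were too shallow to thin, and the whole gate had median depths of 1454 UMIs in Ter119 and 2256 in saline.

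The progenitor and immature gates had the higher shares. They were 76.5% of erythroid progenitors (26 of 34, 58.8 to 89.2%), 75.0% of Elane/Mpo barcodes (39 of 52, 61.0 to 86.0%) and 32.5% of immature neutrophils (124 of 382, 27.8 to 37.4%), all in Ter119. The share of immature neutrophils changed with the thinning depth, which also sets which barcodes remain. It was 22.0% (106 of 481) at 1000 UMIs and 63.9% (108 of 169) at 2500 UMIs. Of the 481, 99 were too shallow for 1500 UMIs and 312 for 2500 UMIs. Unthinned, the whole gate gave 28.5%. At 1500 UMIs the barcodes with at least 3 phase genes had a median depth before thinning of 3236.5 UMIs, and the others 1972. Classical monocytes, gated on Ly6c2, Ccr2 and related genes, gave 2.10% in Ter119 (9 of 429) and 1.22% in saline (2 of 164), with overlapping intervals. Of the 124 immature neutrophils 90 held more G2/M than G1/S UMIs, and the 124 carried 90.7% of G1/S and 94.2% of G2/M UMIs of the gate. In Kupffer barcodes such barcodes carried 39.1% of G1/S and 57.3% of G2/M UMIs in Ter119, and 47.4% of G1/S and 68.0% of G2/M UMIs in saline. Of them 190 of 515 in Ter119 and 299 of 703 in saline held more G2/M UMIs. These shares of UMIs are partly fixed by the choice of barcodes and are given as a description. Most G1/S UMIs of Kupffer barcodes lay outside the chosen barcodes in both samples.

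**Figure D4:**
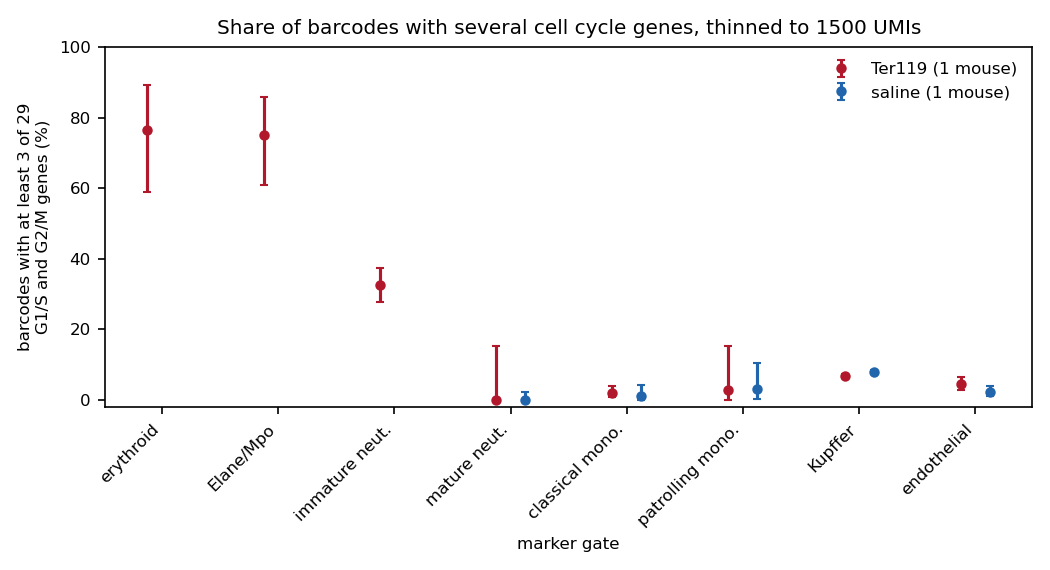
Share of barcodes with at least 3 of the 29 G1/S and G2/M genes after thinning to 1500 UMIs, by marker gate, with Ter119 left of saline and bars giving exact 95% binomial intervals. Erythroid, Elane/Mpo and immature neutrophil barcodes of Ter119 stand at 76.5%, 75.0% and 32.5%, Kupffer barcodes at 6.84% in Ter119 and 7.86% in saline, and mature neutrophils at 0.

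Genes that did not enter this choice separated the same Kupffer barcodes. Stmn1 stood at 481.4 CPM in the chosen barcodes and 55.1 CPM in the others in Ter119, and at 735.9 CPM in the chosen and 27.0 CPM in the others in saline. Other mitosis genes were 5.80 times as high in the chosen barcodes in Ter119 and 7.18 times in saline, and other replication genes 4.05 times in Ter119 and 5.38 times in saline. Summed Kupffer markers stood at 0.942 times the level of the other barcodes in Ter119 and 0.850 times in saline. Ccnd2 stood at 64.3 CPM in chosen and 51.4 CPM in other barcodes of Ter119, and at 15.4 CPM in chosen and 18.4 CPM in other barcodes of saline. Cdkn1a stood at 52.3 CPM in chosen and 56.0 CPM in other Ter119 barcodes, and at 43.5 CPM in chosen and 14.6 CPM in other saline barcodes. Immature neutrophil markers stood at 206.3 CPM in chosen and 128.7 CPM in other Ter119 barcodes, and at 2.33 CPM in chosen and 4.67 CPM in other saline barcodes. With at least 5 phase genes in place of 3 they stood lower in the chosen Ter119 barcodes, at 71.6 CPM against 136.9 CPM in the others. Their part in the levels was not tested.

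Classical monocytes, 533 barcodes in Ter119 and 166 in saline, were low in both phases. G1/S members summed to 203.9 CPM in Ter119 and 182.8 in saline, a ratio of 1.12 (0.928 to 1.34). G2/M members summed to 122.3 CPM in Ter119 and 184.2 in saline, a ratio of 0.664 (0.535 to 0.822), but the log2 ratio was 0.10 with gate thresholds doubled and -0.03 with barcodes past several gates kept. Of 14 members compared, 0 were at least 2-fold higher and 1 was lower, beside 2.21% of all 6866 genes compared that were higher and 5.05% that were lower. That member was Mki67, at 16.7 CPM (18 UMIs) in Ter119 and 33.8 CPM (48 UMIs) in saline. It was no longer 2-fold lower with TMM factors (log2 -0.88), median-of-ratios factors (-0.83) or hemoglobin left out (-0.91). G2/M over G1/S was 0.600 (0.480 to 0.748) in Ter119 and 1.01 (0.846 to 1.20) in saline. Median depths were 1825 UMIs in Ter119 and 8348 in saline. Patrolling monocytes, 104 barcodes in Ter119 and 67 in saline, had the lowest G2/M to G1/S ratios. They were 0.256 (0.114 to 0.523) in Ter119, from 10 and 39 UMIs, and 0.411 (0.241 to 0.678) in saline, from 23 and 56 UMIs. Both intervals overlapped those of other gates in the same sample.

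Endothelial barcodes, 1166 in Ter119 and 596 in saline, served as a cell type outside the blood lineages. G1/S members summed to 289.2 CPM in Ter119 and 293.6 in saline, and G2/M members to 227.9 CPM in Ter119 and 209.5 in saline. Of 24 members compared 3 were at least 2-fold higher and 0 lower, beside 3.53% of all 9178 genes compared that were higher and 7.57% that were lower. Tk1, thymidine kinase, stood at 16.9 CPM in Ter119 and 6.13 in saline, Pclaf at 17.4 in Ter119 and 8.33 in saline, and Cenpe, a kinetochore motor, at 10.7 in Ter119 and 5.26 in saline. The interval of the Cenpe ratio, 0.959 to 4.55, included 1. No other scaling was tried for the endothelial barcodes, whose median gene had a log2 ratio of -0.265. Against these barcodes, Kupffer barcodes of Ter119 were 1.25 times as high in G1/S (1.15 to 1.37) and 1.01 times in G2/M (0.916 to 1.11). Kupffer barcodes of saline were 1.41 times as high in G1/S (1.31 to 1.52) and 1.46 times in G2/M (1.33 to 1.60), with 14 of 15 G2/M members higher.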

How the data were processed

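The authors deposited raw UMI counts per gene and barcode, 1 matrix per sample, with no barcode under 500 UMIs in Ter119 and 620 in saline. The matrices come from Cell Ranger 6.0.2 per the file headers, while the submitters' processing notes name Cell Ranger 4.0.0, the build GRCm38.p6 and, for later steps, Seurat 3.2.3, Scanpy 1.7.0 and DESeq2 1.26.0. The use of hashtags to separate the cells of the 2 pooled mice is not described in those sources. Members, gene lists and gates were chosen with earlier results of these data known.

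Barcodes with at least 1000 UMIs, 500 genes and at most 15% mitochondrial UMIs were kept. Gates used marker UMIs per 10000 UMIs. Barcodes past several gates (637 in Ter119, 469 in saline) got no class, with 1 exception. The Elane/Mpo gate took precedence over immature, then mature neutrophils, then classical monocytes, and the erythroid gate had no precedence. No doublet caller was run. UMIs were summed per gate, with exact Poisson intervals for CPM, conditional binomial intervals for ratios and Clopper-Pearson intervals for shares. They leave out PCR and variation between cells. A gene was compared with at least 10 CPM and 20 UMIs in 1 sample and at least 20 barcodes per gate. All 34 members could be named, as could those at least 2-fold apart, and the 3 genes per pathway list with the largest log2 ratio in Kupffer barcodes. Gene positions came from GENCODE vM21. The ratio code was tested on simulated data. Alternatives changed filters, gates, shared barcodes, scaling (TMM from edgeR 4.0.16), list members and thinning. R 4.3.3 ran edgeR, and all else ran in python 3.11.15 with pandas 2.3.3, scipy 1.17.1, matplotlib 3.10.9 and numpy 2.4.6.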

Additional observations from a re-analysis of the deposited data

How the results depend on the processing

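On the log2 scale, the Kupffer G1/S ratio of -0.192 was -0.274 with at most 5% mitochondrial UMIs, -0.292 with gates halved, -0.0599 without hemoglobin in the totals, 0.137 with TMM factors and 0.143 with median-of-ratios factors. The Kupffer G2/M ratio of -0.412 was -0.536 with gates doubled, -0.576 with gates halved, -0.281 without hemoglobin, -0.0834 with TMM and -0.0773 with median-of-ratios factors. It stayed below 0 in all 11 settings tried, and G1/S in 9 of 11. The Kupffer gate did not change equally in the 2 samples. It held 8711 Ter119 and 9732 saline barcodes, but 5651 and 9659 when doubled, and 8611 and 7674 when halved. The monocyte G1/S ratio of 0.158 was 0.48 with at least 2000 UMIs and 0.636 with gates doubled, and the G2/M ratio of -0.59 was 0.0951 with gates doubled and -0.0315 with barcodes past several gates put in the higher one. With gates doubled, the mature neutrophil ratios of 0.614 for G1/S and 0.756 for G2/M, from 12 Ter119 UMIs each, were 1.61 and 2.03. Doubling also raised the immature gate that mature barcodes must fail. The mature gate then held 76 Ter119 barcodes in place of 48, and 142 saline barcodes in place of 163. The ratios were 1.28 and 1.42 with median-of-ratios factors, and 1.44 and 1.37 with barcodes past several gates put in the higher one. Without its top member G2/M was 0.155. The erythroid G2/M to G1/S ratio of 1.63 was 1.45 without the top members. Kupffer shares with 3 phase genes, 6.84% in Ter119 and 7.86% in saline, were 15.2% and 15.2% with 2 genes, 2.74% and 4.07% with 5, 4.63% and 5.45% at 1000 UMIs and 12.1% and 11.6% at 2500 UMIs, and the saline share was 8.59% with gates halved. TMM shifted all Kupffer log2 ratios by 0.329 and median-of-ratios factors by 0.335. Leaving hemoglobin out, and the other scalings of monocyte, mature neutrophil and pathway genes, were chosen after seeing the data. Causes were not tested. Immature neutrophils gave no comparison, with 2 saline barcodes, and mature neutrophils none with gates halved or at least 2000 UMIs. No paired analysis was possible because each group has 1 sample, of 1 mouse per the labels.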
